A study of Rattus norvegicus with 24 samples.

Results

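The kidneys of Brown Norway (BN) rats at day 18 of pregnancy (BN-P18, n = 3) were set against those of non-pregnant BN rats (BN-NP, n = 3), gene by gene, in one RNA-seq count table. The members were all genes of that table with enough reads to be tested: 14212 of the 32883 genes listed, of which 22041 had at least 1 read in any library. BN is an inbred strain. All 6 rats were females of 2 months, the pregnant ones mated with BN males, and each library came from a different animal. A library was made from total RNA of a whole kidney slice that held cortex and medulla, with ribosomal RNA removed and a strand-marking kit. BN pregnancies were studied as a model in which the placenta is insufficient and the mother becomes hypertensive and proteinuric. The same table held 6 outbred Sprague Dawley (CD) rats of the same age, 3 non-pregnant and 3 at day 18 (pregnancy day 18), which stayed in the fit and served for the comparison of responses between strains.

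The kidney handles a growing filtered load in pregnancy. Its proximal tubule takes back glucose, amino acids and phosphate through carriers of the Slc (solute carrier) families and makes the active hormone of vitamin D, calcitriol, with the enzyme 1-alpha hydroxylase (Cyp27b1), while 24-hydroxylase (Cyp24a1) breaks that hormone down. Type I interferons act through a receptor that activates a transcription factor holding Stat2 and Irf9, which binds interferon-stimulated response elements in the promoters of antiviral genes. Such genes are set at a low level in most tissues and are used to read interferon activity.

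The BN libraries held 8274159 to 10747248 reads on genes, and 13636 to 13817 genes reached 1 CPM (reads of a gene per 1000000 reads on genes) before scaling for composition. The CPM values of genes given below are after that scaling. The table's summary lines, which hold counts not assigned to a gene, made up 73.3% to 74.3% of all counts listed. These lines add up to more than the reads the paper gives per library, so this is not a share of reads. CPM is not corrected for gene length, so CPM values are compared below only between rats for the same gene. Across all tested genes the 6 rats lay close to one another: the Euclidean distance between log2 CPM profiles averaged 46.46 (42.58 to 52.17) over the 6 pairs of rats within a group and 50.63 (44.94 to 54.99) over the 9 pairs between groups, and these ranges overlapped. The kidney's own markers were abundant, among them Slc34a1 (phosphate carrier of the proximal tubule) at 2062 CPM in NP rats, Slc12a3 (distal convoluted tubule) at 743 CPM and Podxl (podocyte) at 597 CPM. No listed marker of the thick ascending limb could be tied to a row of the table.

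A gene was called when its adjusted p in edgeR's quasi-likelihood test (Benjamini-Hochberg over the 14212 genes) was under 0.1 and its level in one group more than 25% above that in the other. At day 18, 117 genes were called higher (0.823% of those tested) and 82 lower (0.577%), together 199 (1.4%). An unadjusted p under 0.05 was reached by 1454 genes. The changes were moderate: the median fold was 1.78 for genes called higher and 1.54, as NP over P18, for those called lower, and 45 genes rose and 16 fell by more than 2-fold. The median log2 fold change over all tested genes was 0.000199, a value that the scaling for composition holds near 0. In 197 of the 199 called genes the values of the 3 NP and the 3 P18 rats did not overlap, against 14.7% of all tested genes (Gamt was an exception). The call itself favours such genes, so this share is a description.

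**Figure D1:**
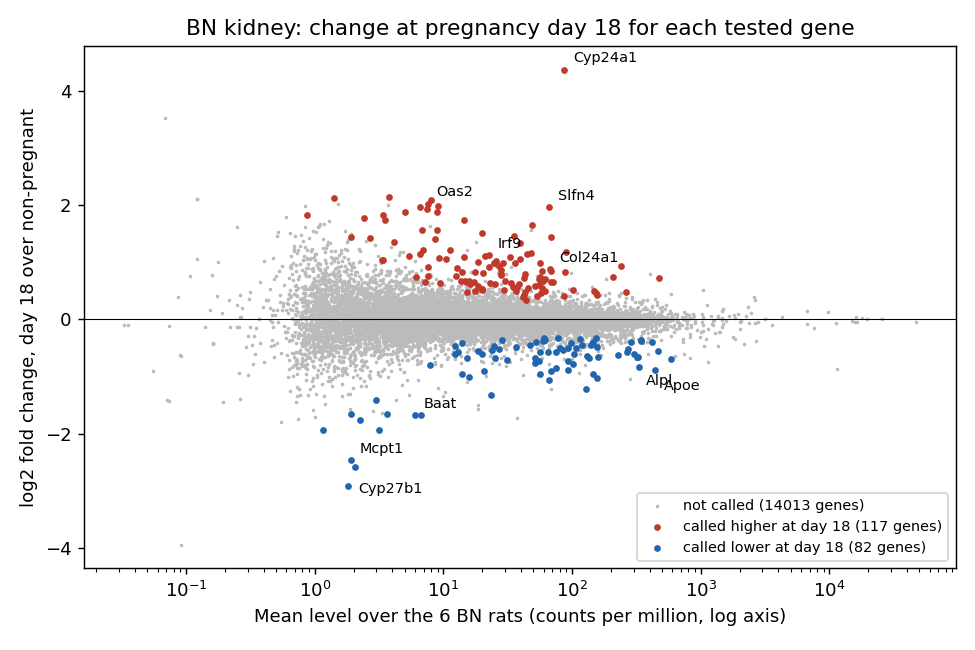
Each point is 1 of the 14212 tested genes, placed by its mean level over the 6 BN rats (CPM, log axis) and its log2 fold change at day 18 over non-pregnant. The 117 genes called higher reach 4.37 (Cyp24a1) and the 82 called lower reach −2.92 (Cyp27b1), and uncalled genes spread widest where levels are lowest.

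Which genes passed the threshold for a call depended on single rats. With 1 BN rat left out at a time, the number of called genes was 27 without NP rat 1 (19 higher and 8 lower), 46 without NP rat 2 (38 and 8), 208 without NP rat 3 (84 and 124), 228 without P18 rat 1 (99 and 129), 64 without P18 rat 2 (55 and 9) and 81 without P18 rat 3 (64 and 17). No called gene changed sign in any of these fits, and all 199 kept an unadjusted edgeR p under 0.05 in each. In every such fit 1 group had 2 rats left, and calls were lost at the threshold. The genes were picked with all 6 rats, which favours a small p in these fits. Of the 199 genes, 23 stayed called in all 6 fits (17 higher and 6 lower) and 17 in none. Among the 82 genes called lower, 53 stayed called in exactly 2 of the 6 fits, and for 51 of these the 2 fits were those without NP rat 3 and without P18 rat 1. Both rats stood nearest to the opposite group: NP rat 3 was the lowest NP rat for 67 of the 82 genes, with a median of −0.18 on the log2 scale against the NP mean, and P18 rat 1 was the highest P18 rat for 61, with a median of −0.50 against −0.73 and −0.65 in P18 rats 2 and 3. Among the 117 genes called higher, P18 rat 3 was the highest P18 rat for 71 and NP rat 1 the lowest NP rat for 69.

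**Figure D2:**
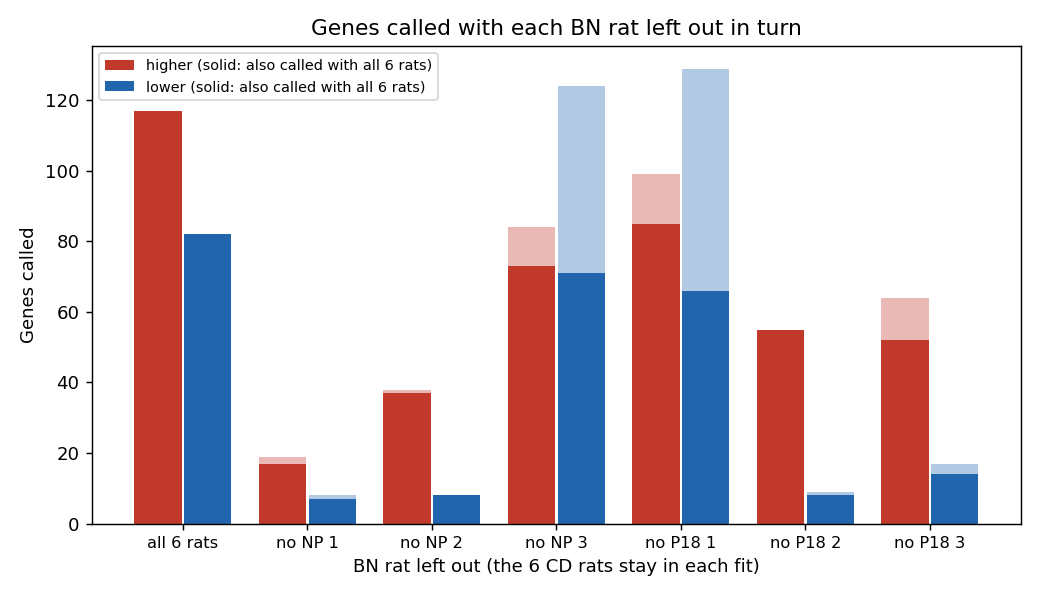
Bars give the number of genes called higher (red) and lower (blue) with all 6 BN rats and with each left out in turn, and the solid part counts genes that are also called with all 6. Genes called lower number 8 without NP rat 1 and 129 without P18 rat 1.

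The 23 genes called whichever rat was left out included, among those higher, Irf9, Helz2, Slfn4, Oasl, Col24a1, Tmem252, Herc6, Rtp4, Uba7, Oas2, Slfn2, Parp12, Adar, Samd9, Oasl2 and a gene known only by its identifier, ENSRNOG00000059097, and, among those lower, Klhdc7a, Baat, Apoe, Tmem144, Cyp2e1 and Alpl. Of the higher ones, 10 belong to the interferon lists described next.

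Interferon-related genes were the largest group among the genes called higher. Over 4 lists (interferon signalling, sensors of RNA and DNA, interferon-induced effectors and class I antigen presentation) 110 genes were listed, 74 had a value, 48 of these rose, none fell and 26 were not called, with a median log2 fold change of 0.75. Over the 2927 tested genes that have a symbol, 3.83% were called higher and 2.63% lower. Symbols reached the table through the study's supplementary gene list, which holds genes with a small p in some comparison. The genes with a value therefore lean toward genes that moved, and the share 48 of 74 is not a share of the pathway. The same holds for every list and group of symbols below.

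Irf9, the DNA-binding subunit of the interferon-activated factor, had the smallest p of any gene with a symbol. It stood at 15, 14.4 and 13.4 CPM in the NP rats and at 29.2, 29.3 and 34.4 CPM in the P18 rats, so each P18 rat was well above each NP rat. Its fold change was 2.17 (log2 1.12 ± 0.11 SE, edgeR adjusted p = 0.000532). Its partner Stat2 rose less, from 48 ± 6.93 CPM (SD, n = 3) to 66.3 ± 7.07 CPM (log2 0.47, edgeR adjusted p = 0.0776). Irf7, the factor that amplifies interferon production, stood at 11.5, 24.8 and 20.3 CPM in NP and at 37.9, 37.4 and 79.6 CPM in P18 rats, where the third P18 rat was far above the other two. The receptor chains with a value, Ifngr1 and Ifngr2 of the type II receptor, were not called (log2 0.14 and 0.28), nor was the kinase Jak2 (log2 −0.34).

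Among sensors of foreign nucleic acid, 8 of 11 with a value rose and none fell. The RNA helicases Ddx58 (RIG-I), Ifih1 (MDA5) and Dhx58 rose by log2 0.57, 0.79 and 1.22. Eif2ak2, the kinase that halts translation on double-stranded RNA, rose from 41.8 ± 5.39 to 69.8 ± 11.8 CPM, and Adar, which edits double-stranded RNA, from 53.5 ± 2.96 to 83.7 ± 12 CPM. The endosomal receptors Tlr7 and Tlr9 and the Z-nucleic acid sensor Zbp1 were called as well (log2 0.92, 0.75 and 1.35). Trim25, Ikbke and Tlr8 were not called.

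Of the 39 effectors with a value, 30 rose, by 1.35-fold (Igtp) to 4.07-fold (Oas2), none fell and 9 were not called. Oas2, an oligoadenylate synthetase that switches on RNA decay, stood at 2.07, 4.02 and 2.84 CPM in NP and at 11.5, 8.75 and 16 CPM in P18 rats. Its lowest P18 value was well above its highest NP value, and its log2 fold change was 2.02 ± 0.30 SE (edgeR adjusted p = 0.00826). The relatives Oas1a, Oasl and Oasl2 rose by log2 1.88, 1.93 and 1.10. The ubiquitin-like modifier Isg15 and its enzymes rose together. Isg15 itself had 3.26, 3.77 and 4.42 CPM in NP and 9.88, 9.02 and 23.5 CPM in P18 rats, and without the third P18 rat, the highest, its log2 fold change fell from 1.88 to 1.31. Uba7, the activating enzyme, went from 12.3 ± 2.69 to 24.7 ± 3.03 CPM, Herc6, a ligase, from 55.1 ± 7.06 to 125 ± 20.2 CPM, and Usp18, which takes Isg15 off again, from 3.66 ± 2.39 to 14.4 ± 4.59 CPM. Helz2, a helicase, stood at 43.3, 47 and 45.9 CPM against 71.6, 69.7 and 76.4 CPM, a small change with little spread (log2 0.68 ± 0.074 SE). Rtp4, Parp12, Rsad2, Ifit2, Ifit3, Mx2, Ifi27 and Bst2 were also called, by log2 1.97, 0.81, 0.94, 1.15, 1.41, 1.66, 1.16 and 0.72. Oas1b (log2 1.22, edgeR adjusted p = 0.15) and Oas3 (log2 1.55, edgeR adjusted p = 0.129) had large changes that missed the threshold.

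Slfn4 and Slfn2, members of the Schlafen family that were in none of the lists, were among the 12 genes called higher with the smallest p. Slfn4 stood at 20.4, 29.9 and 30.2 CPM in NP and at 92.6, 106 and 115 CPM in P18 rats, a fold change of 3.89 (log2 1.96 ± 0.22 SE, edgeR adjusted p = 0.00166) with a wide gap between the groups. Slfn2 went from 19.3 ± 1.89 to 38.3 ± 7.72 CPM. In class I antigen presentation 5 of 13 genes with a value rose, the peptide pump subunit Tap1 (log2 0.82), the immunoproteasome subunit Psmb9 (log2 0.63) and the class I chains RT1-S3, RT1-N3 and RT1-CE7 (log2 0.85, 0.65 and 0.67). RT1, Oas, Ifit, Slfn and Gbp genes have close copies, so how their reads were divided is uncertain.

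The third P18 rat carried the highest P18 value in 44 of the 48 called genes of the interferon lists, with a median of 1.17 on the log2 scale above the NP mean, against 0.74 and 0.77 in the first and the second. The medians of all 3 P18 rats lay above those of the NP rats, by different amounts. The 48 genes were picked by their call in these same rats, which favours that order, so it is a description. With single rats left out, 10 of the 48 stayed called without NP rat 1, 21 without NP rat 2, 33 without NP rat 3, 44 without P18 rat 1, 34 without P18 rat 2 and 21 without P18 rat 3. Of the 48, 44 had the same sign in CD rats and 39 were also called higher there, while the matching shares over all tested genes were not counted. The response differed between strains for 1 of them, Nlrc5 (interaction adjusted p of edgeR = 0.0551).

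Macrophage markers were measured beside the interferon group. Of 8 listed, 6 had a value, 2 of them rose (C1qa and C1qc) and 4 were not called (Csf1r, Cd68, C1qb and Mrc1), and their summed level was 99.07 to 109.4 CPM in NP and 125.2 to 137.2 CPM in P18 rats, ranges that did not overlap. Lyz2, a lysozyme of myeloid cells named after its values were seen, stood at 159.6, 148 and 160.3 CPM against 229.9, 236 and 311 CPM. Listed markers of T and NK cells, B cells and neutrophils had no value. The part of macrophage number in the interferon group was not tested, and in bulk tissue more cells of a type and more RNA per cell cannot be told apart.

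Promoter sequence was a feature that the call did not use. In the window from 250 bases before to 50 after the start (RefSeq, rat build GRCr8; BN/NHsdMcwi is the animal sequenced), the core of the interferon-stimulated response element was searched as GAAA, any 2 bases, GAAA, on both strands. It was in 3.77% of all 27457 promoters, in 4.41% of 2312 promoters of tested genes with a symbol, in 35.6% of 87 promoters of genes called higher and in 1.61% of 62 promoters of genes called lower. Within the genes called higher it was in 60.0% of the 35 promoters found for the 48 genes of the interferon lists and in 19.2% of the 52 others. The 31 genes called higher with the core held 40 copies, 27 of them in the 100 bases before the start. The 6 promoters below, from 100 bases before to 50 after the start, are those of the called interferon-list genes with the smallest p that hold the core in this stretch, and the capitals mark it. The choice of stretch sets how near the start these cores lie, and Oas1a holds 2 overlapping copies.

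Parp12: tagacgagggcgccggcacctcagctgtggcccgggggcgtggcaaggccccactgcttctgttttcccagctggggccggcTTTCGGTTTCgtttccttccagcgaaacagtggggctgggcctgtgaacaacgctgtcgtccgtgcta
Irgm: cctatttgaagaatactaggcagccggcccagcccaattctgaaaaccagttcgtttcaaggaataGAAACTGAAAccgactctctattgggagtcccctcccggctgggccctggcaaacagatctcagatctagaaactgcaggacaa
Eif2ak2: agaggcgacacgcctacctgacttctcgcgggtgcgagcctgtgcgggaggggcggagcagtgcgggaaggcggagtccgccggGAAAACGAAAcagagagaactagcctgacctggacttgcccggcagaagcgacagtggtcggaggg
Lgals3bp: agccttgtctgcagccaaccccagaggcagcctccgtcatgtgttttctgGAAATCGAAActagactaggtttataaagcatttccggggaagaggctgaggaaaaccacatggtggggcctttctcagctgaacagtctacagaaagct
Oas1a: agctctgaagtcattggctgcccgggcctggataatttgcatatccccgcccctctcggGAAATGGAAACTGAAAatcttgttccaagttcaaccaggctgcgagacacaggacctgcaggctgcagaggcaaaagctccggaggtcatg
Ifi44: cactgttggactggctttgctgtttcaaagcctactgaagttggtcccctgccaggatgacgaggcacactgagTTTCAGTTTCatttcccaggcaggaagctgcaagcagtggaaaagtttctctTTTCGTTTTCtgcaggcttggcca

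Parp12 lies at chr4:68850492-68850641 (minus strand), Irgm at chr10:33742529-33742678 (minus), Eif2ak2 at chr6:21941054-21941203 (plus), Lgals3bp at chr10:104127799-104127948 (minus), Oas1a at chr12:41330366-41330515 (plus) and Ifi44 at chr2:243303791-243303940 (minus), all in GRCr8, while the counts were made on another build, Rnor_6.0. The core was not found in the windows of Irf9, Helz2, Slfn4 or Herc6. Other motifs were searched as well. The E-box CACGTG, which clock factors bind, was in 5.75% of promoters of genes called higher and 6.45% of those called lower. It was in 8.91% of promoters of tested genes with a symbol and in 6.65% of all promoters. The sterol regulatory element core TCACCCCAC was also searched on both strands. It was in 0 of the 87 promoters of genes called higher and 0 of the 62 of those called lower. Its share was 0.562% for tested genes with a symbol and 0.495% for all promoters. Promoters were found for only 2 of the 5 called cholesterol genes described below.

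Some genes called higher lay near one another. Of the 112 called higher that could be placed in the order of protein-coding genes (RefSeq, GRCr8), 27 stood within 3 genes of another, in 11 runs, among them Slfn13, Slfn2 and Slfn4, Oasl and Oasl2 with Ankrd13a, Gbp1, Gbp2 and Gbp4, Ifit2 and Ifit3, Parp9 and Parp14, Tap1 and Psmb9, and C1qa and C1qc. Of the 77 called lower that could be placed, 6 stood in 3 runs. The same count over all tested genes was not made, so these numbers are a description. The Slfn, Gbp and Ifit runs are of close copies, whose reads may not be fully separated.

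Among the called genes, vitamin D metabolism held the largest changes in both directions. Cyp24a1, the enzyme that degrades calcitriol, stood at 7.5, 8.88 and 7.48 CPM in NP and at 186, 165 and 141 CPM in P18 rats. The groups were far apart and each was tight, and the fold change was 20.7 (log2 4.37 ± 0.76 SE, edgeR adjusted p = 0.0253). The fit shares 1 estimate of spread among all 12 libraries, and CD rats varied widely in this gene, at 79.4 ± 77.7 CPM in CD-NP and 85.6 ± 59.3 CPM in CD-P18 rats (mean ± SD, n = 3). With the BN libraries alone the edgeR adjusted p was 2.41e-07, and with all 12 it stayed called in 4 of the 6 fits that left out a BN rat, losing the call without NP rat 1 or NP rat 2. Cyp27b1, the enzyme that makes calcitriol, stood at 3.37, 5.11 and 1.05 CPM in NP rats, from 31, 42 and 10 reads, and at 0.429, 0.273 and 0.531 CPM in P18 rats, from 4, 3 and 5 reads. It was lower in each P18 rat than in each NP rat (log2 −2.92 ± 0.63 SE, edgeR adjusted p = 0.0614), on few reads, and of the 6 fits with 1 rat left out it stayed called only in that without NP rat 3. Its neighbour Eef1akmt3, a methyltransferase gene, moved with it, from 5, 3.89 and 1.69 to 0.966, 0.182 and 0.638 CPM. Whether reads were assigned by strand is not given in the sources used here, so reads of these neighbours may not be fully separated.

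In the list of vitamin D, calcium and phosphate handling, 10 of 24 genes had a value, both enzymes included, and 1 rose, 2 fell and 7 were not called. The other gene that fell was Slc34a3, a phosphate carrier of the proximal tubule, which stood at 102, 98 and 88.7 CPM in NP and at 61.2, 43.4 and 55.3 CPM in P18 rats (log2 −0.86 ± 0.15 SE, edgeR adjusted p = 0.0282), with no overlap. The main phosphate carrier Slc34a1 (log2 −0.35, edgeR adjusted p = 0.347), the vitamin D receptor Vdr (log2 0.40, 0.206), the 25-hydroxylase Cyp2r1 (log2 −0.36, 0.281), the calcium channel Trpv5 (log2 0.38, 0.347) and the parathyroid hormone receptor Pth1r (log2 −0.29, 0.302) were not called. The median log2 fold change of the 10 genes was −0.33.

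In BN-P18 rats 5 of 12 genes of cholesterol synthesis and uptake rose and none fell, with a median log2 fold change of 0.47 over the 12 of 28 listed that had a value. Among these were Hmgcs1, which acts early in the pathway, and Sqle and Cyp51, which act on squalene and lanosterol. Hmgcs1 stood at 31.5, 45 and 38.1 CPM in NP and at 97.1, 81.7 and 46.6 CPM in P18 rats (log2 0.98 ± 0.20 SE, edgeR adjusted p = 0.0469). The first 2 P18 rats were high and the third was barely above the highest NP rat. Sqle, at 17.5, 22.1 and 19.8 CPM against 33.6, 33.6 and 23.5 CPM, had the same form. In all 5 genes the third P18 rat was the lowest P18 rat and NP rat 1 the lowest NP rat, the reverse of the place that the third P18 rat held in the interferon group. Without P18 rat 3 all 5 stayed called, and without NP rat 1, NP rat 2 or P18 rat 2 none did. With the BN libraries alone Cyp51 was not called (edgeR adjusted p = 0.188). Idi1, an enzyme between these steps, had a log2 fold change of 0.79 and was not called (edgeR adjusted p = 0.151), and Srebf2, the factor that drives the pathway, likewise (0.28, adjusted p = 0.245).

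**Figure D3:**
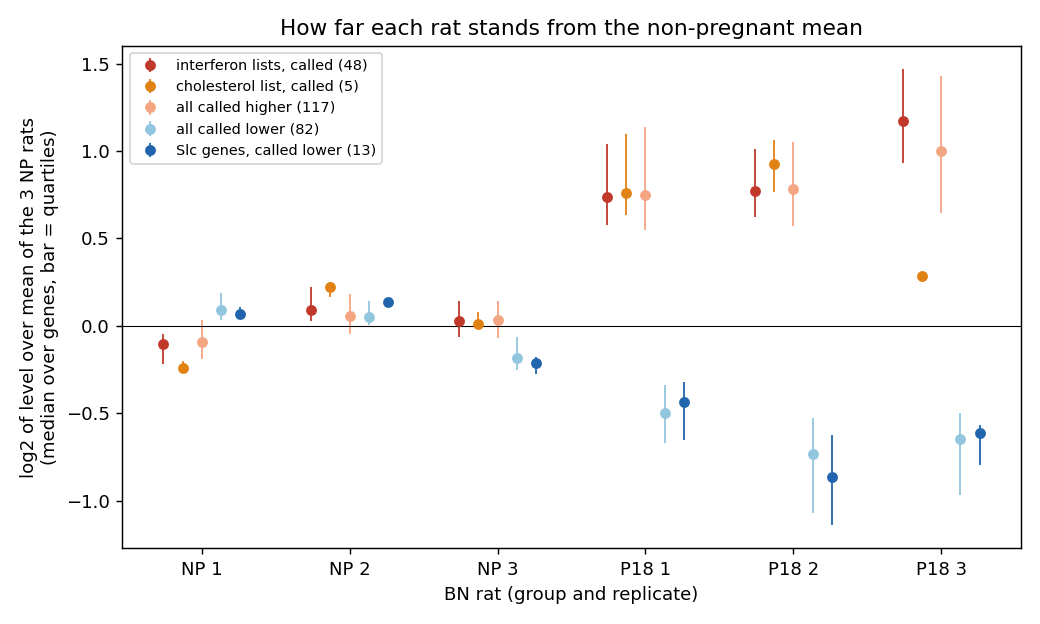
For each BN rat, the median over genes of the log2 level above the mean of the 3 NP rats (bars are quartiles) is given for groups of called genes. The third P18 rat stands highest for the interferon lists (1.17) and lowest of the P18 rats for the cholesterol list (0.286). Of the P18 rats, the first stands nearest to 0 for the Slc genes (−0.435).

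The collagen gene Col24a1 stood at 43.2, 45.6 and 53.3 CPM against 97.6, 83.7 and 80.7 CPM and the membrane protein gene Tmem252 at 46, 31.9 and 32.5 CPM against 115, 83 and 102 CPM, and neither overlapped between groups. Of the immediate early genes, 3 of 13 with a value (23 listed) were called: the orphan nuclear receptors Nr4a3 and Nr4a1 and the RNA-binding Zfp36. Nr4a3 stood at 2.83, 2.56 and 3.69 CPM in NP and at 23.5, 10.6 and 4.78 CPM in P18 rats, a wide spread in which the first P18 rat decided much of the mean: without it the log2 fold change went from 2.08 to 1.35. Fos was not called, with 5.65, 2.8 and 7.48 CPM against 8.05, 12.8 and 3.51 CPM, which overlapped.

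In the cell cycle list 4 of 7 genes with a value (24 listed) rose, against 3.83% of all tested genes with a symbol. They were the replication helicase subunits Mcm2 and Mcm4, the proliferation marker Mki67 and the topoisomerase Top2a. Mki67 went from 16.4, 12.7 and 17.9 CPM to 26.5, 31.4 and 30.8 CPM (log2 0.91, edgeR adjusted p = 0.0767), and the summed level of the 7 was 50.75 to 61.84 CPM in NP and 87.38 to 99 CPM in P18 rats. None of the 4 stayed called without NP rat 1, NP rat 2 or P18 rat 2. Of the complement list, C7, a subunit of the membrane attack complex, and the C1q chains C1qa and C1qc rose, 3 of 6 with a value (22 listed). With 1 BN rat left out, C7 stayed called in 4 of the 6 fits, C1qa in 1 and C1qc in 0. C7 stood at 385, 402 and 274 CPM in NP and at 568, 487 and 705 CPM in P18 rats, again highest in the third P18 rat (log2 0.73 ± 0.15 SE, edgeR adjusted p = 0.0427).

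Among the genes called lower with the smallest p were genes of lipid, mineral and drug metabolism. Apoe, the lipid carrier apolipoprotein E, stood at 658, 549 and 513 CPM in NP and at 312, 270.3 and 345 CPM in P18 rats (1.86-fold lower, log2 −0.89 ± 0.12 SE, edgeR adjusted p = 0.0043). Alpl, tissue non-specific alkaline phosphatase, stood at 507, 419.8 and 343 CPM against 264, 234 and 214 CPM (log2 −0.83 ± 0.13 SE, edgeR adjusted p = 0.0106). Both had a clear gap between groups. Baat, which conjugates bile acids, went from 9.46, 10.1 and 7.8 CPM to 3.54, 2.64 and 2.34 CPM, a 3.2-fold difference, and the cytochrome Cyp2e1 from 388, 404 and 404 CPM to 273, 229.8 and 259 CPM. Klhdc7a, a kelch-domain gene with the smallest p among those lower (edgeR adjusted p = 0.00246), stood at 60.8, 61.9 and 66.9 CPM against 35.5, 40.9 and 42.5 CPM. Tmem144, at 26.9 ± 3.54 against 14.3 ± 0.602 CPM, Sgk2, a kinase, at 31.9 ± 2.29 against 22.3 ± 2.04 CPM, the carboxylesterase Ces2g at 181 ± 48.5 against 77.9 ± 14.1 CPM, Plcl1 at 68.9 ± 1.73 against 53.4 ± 3.02 CPM and pyruvate carboxylase, Pc, at 365 ± 37.4 against 239 ± 36.3 CPM complete the 12 with the smallest p apart from 2 carriers.

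**Figure D4:**
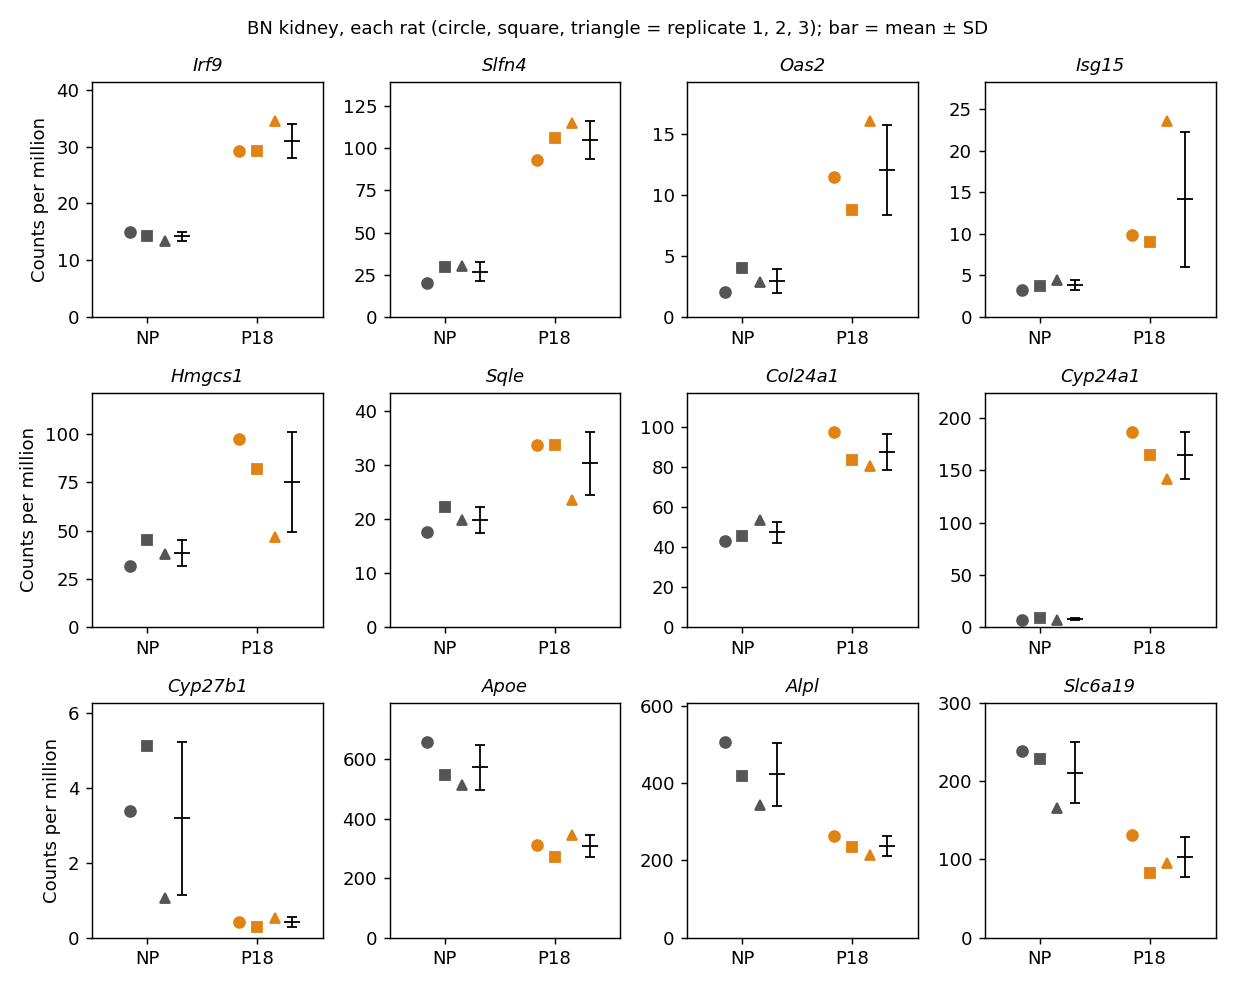
The level (CPM) of 12 genes in each of the 6 BN rats, with the mean ± SD of each group (n = 3), on axes that start at 0. Cyp24a1 stands at 141 to 186 in P18 rats and under 9 in NP rats, Isg15 is highest in the third P18 rat, and Hmgcs1 and Sqle are, of the P18 rats, lowest in that rat.

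Solute carriers were grouped after their values were seen. Of 107 tested genes whose symbol starts with Slc, 13 fell, 2 rose and 92 were not called, with a median log2 fold change of −0.042. Over all tested genes with a symbol, 2.63% were called lower and 3.83% higher. Slc6a19, the luminal carrier of neutral amino acids, had 238, 229 and 166 CPM in NP and 132, 83.1 and 94.9 CPM in P18 rats (log2 −1.03 ± 0.18 SE, edgeR adjusted p = 0.028). The glucose carriers Slc2a2 (GLUT2) and Slc5a2 (SGLT2) fell by 1.07 and 0.64 on the log2 scale, the amino acid carriers Slc7a7 and Slc7a8 by 0.95 and 0.63, the sulfate carrier Slc26a1 by 0.73, the fatty acid carrier Slc27a2 by 0.56 and the creatine carrier Slc6a8 by 0.40. Others were Slc34a3, Slc17a4, Slc37a4 and Slc25a15. Slc2a1 (GLUT1) and the zinc carrier Slc39a8 rose, by log2 0.40 and 0.54. In all 13 the third NP rat was the lowest NP rat, and in 12 the first P18 rat was the highest P18 rat. Without NP rat 3, or without P18 rat 1, all 13 stayed called, without P18 rat 3 there were 3, and without NP rat 1, NP rat 2 or P18 rat 2 there were none.

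The 3 listed proximal tubule markers with a value, Slc34a1, Slc5a2 and Slc22a6, had negative log2 fold changes. All 3 are themselves among the Slc genes counted above, so this is not a separate result. Slc5a2 alone was called lower, and it is among the carriers that fell. The summed level of the 3, most of it Slc34a1, was 2407 to 2969 CPM in NP and 1859 to 2499 CPM in P18 rats. These ranges overlapped. The sum was lowest in the third NP rat and highest in the first P18 rat of their groups. Podocyte markers (3 of 5 with a value, 0 called) summed to 698.4 to 755.8 CPM in NP and 615.3 to 696.7 CPM in P18 rats. The share of proximal tubule in the slice was not tested as a part of this result.

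Below 2 CPM in the P18 rats stood Mcpt1, a mast cell protease, with 2.5, 1.83 and 5.37 CPM in NP and 0.322, 0.182 and 1.28 CPM in P18 rats, from 23, 15 and 51 reads against 3, 2 and 12. Its log2 fold change of −2.47 went to −3.65 without the third P18 rat, the largest shift of any called gene. Lsmem2 and Lrch2, also among the 5 largest falls, had 9.35, 3.04 and 2.74 against 0.966, 1.55 and 1.38 CPM and 1.3, 2.31 and 1.9 against 0.322, 0.729 and 0.319 CPM, and the identifier ENSRNOG00000048053, called higher, rested on similarly few reads. Such genes were called on counts that 1 rat could move.

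Several groups fixed in the gene lists showed few calls or none. Of sodium and chloride transport genes, 1 of 15 with a value was called (Slc5a2, lower). The sodium-chloride cotransporter Slc12a3 was not called (log2 0.10), nor were the sodium pump subunit Atp1b1 (log2 0.11) and the exchanger Slc9a3 (log2 −0.086). None of 6 genes of the renin-angiotensin and vasoactive list was called; Ace had a log2 fold change of 0.51 (edgeR adjusted p = 0.146) and Flt1, a receptor of vascular endothelial growth factor, of −0.14 (0.651). No gene was called of the 17 for heat shock and unfolded protein, the 10 of kidney injury, the 9 of the circadian clock or the 3 of water and urea transport with a value, where the injury list's collagen Col4a1 and lipocalin Lcn2 had log2 fold changes of 0.25 and 0.79 (edgeR adjusted p = 0.144 and 0.412). Among glutathione and oxidant defence genes Gsta1 rose (log2 0.62), Gsta2 fell (log2 −0.66) and 14 of 16 were not called; Gpx3, the secreted glutathione peroxidase, stood at 17213, 16167 and 11364 CPM in NP and at 9952, 6599 and 7847 CPM in P18 rats, without overlap, and missed the threshold (edgeR adjusted p = 0.117). Of hormone receptors and growth factors 1 of 10 was called, the growth hormone receptor Ghr (log2 −0.39), of organic ion carriers 1 of 12 (Slc26a1, lower) and of fatty acid oxidation genes 1 of 8 (Slc27a2, lower). Missing the threshold does not show that these genes were the same in both groups.

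The response of BN rats was compared with that of CD rats by the interaction of pregnancy and strain in the same fit, where 0.943% of tested genes had an adjusted p under 0.1. Of the 199 genes called in BN, 23 did (14 of those higher and 9 of those lower). The interaction holds the same BN contrast by which the 199 genes were picked. The choice of genes thus favours a larger share among them, and the 2 shares are not a test of strain dependence. In CD rats 154 of the 199 changed with the same sign (95 of the 117 higher and 59 of the 82 lower), 76 were called in the same direction (62 higher, 14 lower) and 4 in the opposite one, among them Adra2b, Pmepa1 and LOC102551819. The matching shares over all tested genes were not counted, so these counts are a description. Of the called cholesterol genes, Hmgcs1, at 48.1 ± 1.34 CPM in CD-NP and 40.2 ± 1.89 CPM in CD-P18 rats, had a response 1.23 ± 0.28 SE higher in BN on the log2 scale (edgeR adjusted p = 0.0897), and Sqle and Cyp51 had differences of 0.998 and 1.08. Tmem252 stood at 106 ± 13.9 CPM in CD-NP and 106 ± 23.2 CPM in CD-P18 rats and Col24a1 at 154 ± 19.9 and 150.0 ± 7.22 CPM, with differences of 1.45 and 0.92. Alpl fell in BN and had a log2 fold change of 0.25 in CD, a difference of −1.08 ± 0.18 SE (edgeR adjusted p = 0.0225). Adra2b, an adrenergic receptor, had a log2 fold change of −0.44 in BN and of 0.37 in CD. C7 rose in both strains and less in BN (log2 0.73 against 1.75).

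**Figure D5:**
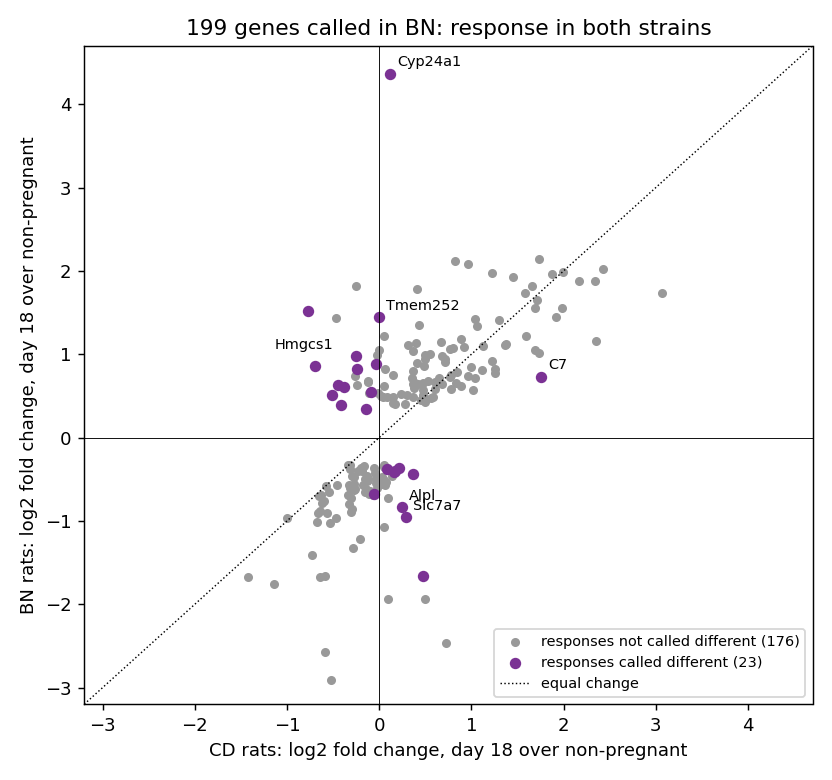
Each of the 199 genes called in BN is placed by its log2 fold change at day 18 in CD rats (x axis) and in BN rats (y axis), with the dotted line at equal change. The 23 purple genes had an interaction adjusted p under 0.1, among them Cyp24a1 (4.37 in BN, 0.12 in CD) and Alpl (−0.83 and 0.25).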

How the data were processed

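Total RNA of kidney slices was sequenced by the study. Per the labels and the study's methods, the deposited gene counts are raw read counts from reads trimmed with Trimmomatic, aligned with STAR 2.5.2 to Rnor_6.0 and counted with HTSeq 0.6.1, and whether strand was used in counting is not given in the sources used here. The authors' table holds Ensembl identifiers. HTSeq's summary lines (73.3% to 74.3% of the counts listed in BN libraries) were left out. All 12 libraries (3 rats in each of 4 groups) entered 1 fit in edgeR 4.0.16 (R 4.3.3) with filterByExpr, TMM scaling and the quasi-likelihood test, and the contrast was BN-P18 minus BN-NP. CPM values use TMM-scaled library sizes. Genes were called at an adjusted p (Benjamini-Hochberg) under 0.1 with a difference in level of more than 25%. The method was tested on simulated counts. The bisulfite libraries were not used here.

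Symbols were tied to identifiers by matching fold changes and mean levels with the study's supplementary table in all 4 comparisons (within 0.01 on the log2 scale), which placed 3063 of 3064 symbols and, with the sign turned as a control, 5.55%. The authors' fold changes and p-values in it served for this match alone. Gene lists, the rule for named genes (the 12 smallest p each way, the 5 largest changes each way, called list members, genes the study measured by PCR, those moved most by 1 rat and those kept in every fit) and the comparison itself were chosen with earlier results of these data known. Some genes that the rule names are not reported here. Genes outside that rule were named after their values were seen. Replicates are separate animals.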

Additional observations from a re-analysis of the deposited data

Results flagged for a closer look

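For 23 of the 199 genes called in BN, the day 18 response differed between strains (interaction adjusted p of edgeR under 0.1). The values here are that difference, BN minus CD, on the log2 scale. The genes were picked by their change in BN, which favours such differences. Among the genes called higher in BN, the difference was 1.45 for Tmem252, 1.03 for LOC102551819, 0.92 for Col24a1 and 0.81 for Pmepa1, each past the threshold in all 6 fits that left out 1 BN rat. It was 1.08 for Cyp51, 0.998 for Sqle and 1.07 for Nlrc5, past it in 4 of the 6, 0.63 for Mid1ip1 in 2, and 1.23 for Hmgcs1 and 0.49 for Acsl5 in 1. For Cyp24a1 it was 4.25 and was past the threshold in 0 of the 6, in the presence of the wide spread of CD rats given above.

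Among the genes called lower in BN, the difference was −1.08 for Alpl, −0.81 for Adra2b, −0.62 for Klhdc7a and −0.59 for Plcl1, past the threshold in all 6 fits. It was −1.24 for Slc7a7, −0.58 for Cdh2 and −0.58 for Slc6a8, past it in 2, and −0.47 for Ahsa1 and −2.14 for ENSRNOG00000060442, past it in 1. C7 was called higher in both strains with a difference of −1.02, past the threshold in 3 of the 6 fits.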

How the results depend on the processing

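No called gene changed sign under any alternative run. The 199 calls (117 higher, 82 lower) became 202 with DESeq2 size factors in edgeR, 180 with upper-quartile scaling, 195 with a minimum of 1 CPM in all libraries and 149 with BN libraries only, where 123 of the 199 were kept (74 higher, 49 lower). Without a filter on low counts they were 352 (189 higher, 163 lower), at an adjusted p under 0.05 and a fold over 1.5 they were 70 (47 and 23), and in DESeq2 1.42.0 they were 294 (157 and 137), with 196 of the 199 kept. With 1 BN rat left out, calls ranged from 27 to 228, those higher from 19 to 99 and those lower from 8 to 129. Of the original 199 genes, the number with a different CD response ranged from 10 to 25 in these fits, against 23. Without the filter that last number was 46, and in DESeq2 42. The mean distance between profiles, 46.46 within and 50.63 between groups, was 52.08 and 56.29 with a prior count of 0.5 and 41.15 and 45.17 with 5.

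The sources used here do not say whether replicate numbers link NP and P18 rats. Deviations from the group means correlated at 0.27, −0.105 and 0.202 for same-numbered rats. For the other pairs of an NP and a P18 rat they correlated at −0.279 to 0.101. The values for replicates 1 and 3 were thus the highest, and a link by replicate number was not tested. With the replicate block, calls were 351 (175 higher, 176 lower), 182 of the 199 were kept and 39 of the 199 differed from CD. Each group had 3 rats, so a call can rest on 1 animal. Genes under 2 CPM had a few reads a library. Of the genes named that were not called, Mrc1 changed sign: its log2 fold change ranged from −0.34 to 0.012 with 1 rat left out.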

Other observations

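Some called genes outside the lists share a known role and were picked after their values were seen, so they are given as values. Dusp6 and Etv5, a phosphatase and a factor that growth factor signalling through ERK kinase induces, rose. Etv5 stood at 15.4, 12.5 and 11.9 CPM in NP and at 34.2, 24.2 and 27.6 CPM in P18 rats (log2 1.11, edgeR adjusted p = 0.0427), and Dusp6 at 34.4, 27.3 and 32.2 CPM against 68.7, 55.4 and 38.9 CPM (log2 0.79, 0.0578). Both were highest in the first P18 rat. The cytokine receptor Osmr stood at 32.8, 36.6 and 37.5 CPM against 52.2, 47.6 and 50.1 CPM. With 1 BN rat left out, Dusp6 stayed called in 2 of the 6 fits, Etv5 in 3 and Osmr in 4.

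Among the genes called lower, Ctsa encodes a lysosomal enzyme and Igf2r the receptor that brings such enzymes to the lysosome. Ctsa stood at 791, 787 and 605 CPM in NP and at 536, 404 and 414 CPM in P18 rats. Igf2r stood at 401, 403 and 361 CPM against 329, 291 and 286 CPM. The groups were apart in each, as in 197 of the 199 called genes. Acmsd and Qprt, which act at the branch of tryptophan breakdown that leads to NAD, went from 129 ± 18.3 to 74.7 ± 12.6 CPM and from 22.2 ± 2.85 to 15 ± 1.95 CPM (SD, n = 3). Stra6, the receptor for retinol-binding protein, stood at 129, 128 and 103 CPM against 80.3, 53.7 and 61.3 CPM. With 1 BN rat left out, Ctsa, Igf2r, Acmsd, Qprt and Stra6 stayed called only without NP rat 3 and without P18 rat 1.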
